A study of Mus musculus with 8 samples.

Results

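The common gamma chain cytokine receptors are the chains through which T cells sense interleukins 2, 4, 7, 9, 15 and 21. The genes described here are Il2ra, Il2rb, Il2rg, Il4ra, Il7r, Il15ra and Il21r, and their probe sets were taken as those to which the deposited annotation gives the Entrez identifier of 1 of these genes and no other. This rule gave 14 probe sets for 7 genes, out of 45037 probe sets and 20665 single gene identifiers on the array. A further probe set that lists a member together with other genes was left out. Il2ra, Il2rb, Il2rg, Il7r and Il15ra have 2 probe sets each, Il4ra has 3 and Il21r has 1.

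The data were 8 one-colour Affymetrix arrays of RNA from sorted mouse regulatory T cells, the CD4+ subset defined by expression of Foxp3. The cells were CD4+CD25+ and either GFP-RFP+, which the labels call peripherally induced, or GFP+RFP+, which they call thymically induced, and each population came from lymph nodes and from spleen. The mice were untreated and 14 to 17 weeks old, and the sources used here name neither their strain nor the alleles behind both fluorochromes. The organs of 20 mice entered the pools, the labelling used 50 ng of RNA, and each of the 4 groups had 2 arrays described as technical replicates. A pool therefore counted as 1 sample: the organ was the only repeat of the population comparison and the population the only repeat of the organ comparison. Because CD25, the product of Il2ra, was part of the sorting gate in every group, the level of Il2ra is not independent of the sort.

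Il2rg encodes the common gamma chain itself, which carries the kinase JAK3 and is required by every receptor of the family. Il2rb pairs with it to form the signalling receptor for interleukins 2 and 15, and Il2ra, as CD25, raises the affinity for interleukin 2, on which regulatory T cells depend because they make little of it themselves. Il15ra, Il7r, Il4ra and Il21r encode the private chains of the other receptors. Binding leads through JAK1 and JAK3 to phosphorylated STAT proteins, mainly STAT5 for interleukins 2, 7 and 15, STAT6 for interleukin 4 and STAT3 for interleukin 21. High CD25 with low CD127, the product of Il7r, is widely used to tell regulatory from conventional CD4+ T cells.

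Among the 7 receptor genes, Il2ra and Il7r had the clearest differences between the groups, Il2ra between populations and Il7r between organs. The 250 bases before their annotated starts are shown for that reason. They are RefSeq sequences of GRCm38.p6, from chr2:11642542-11642791 on the plus strand for Il2ra and from chr15:9529877-9530126 on the minus strand for Il7r, each written 5′ to 3′ along the gene.
Il2ra: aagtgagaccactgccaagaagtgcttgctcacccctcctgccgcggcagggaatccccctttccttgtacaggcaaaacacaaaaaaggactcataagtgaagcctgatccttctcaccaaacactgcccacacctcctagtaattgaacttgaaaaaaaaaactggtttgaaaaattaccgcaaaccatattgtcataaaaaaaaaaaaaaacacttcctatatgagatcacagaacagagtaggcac
Il7r: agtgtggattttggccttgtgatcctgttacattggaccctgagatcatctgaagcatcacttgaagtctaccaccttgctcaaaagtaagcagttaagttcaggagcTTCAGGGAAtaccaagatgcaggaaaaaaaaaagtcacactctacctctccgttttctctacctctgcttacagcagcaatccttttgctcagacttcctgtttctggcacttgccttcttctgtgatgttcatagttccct
Capitals mark a match to TTCNNNGAA, the spaced palindrome that STAT5 is known to bind, and the same windows were searched on both strands for GTAAACA, a FOXO motif, CCGGAAG, an ETS motif, and TGANTCA, an AP-1 motif. The Il7r window holds 1 match, to TTCNNNGAA, which starts 142 bases before the start site. The Il2ra window holds none of these letters. Of 32851 annotated windows of the same length, 7.02% hold TTCNNNGAA, 3.17% GTAAACA, 6.91% CCGGAAG and 6.75% TGANTCA. A match is a description of the sequence only, since no binding was measured.

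All 7 genes were detected. Of the 14 probe sets, 12 were called present in 8 of 8 detection call columns, and each gene had at least 1 of these. The exceptions were both for Il4ra: 1423996_a_at was called present on 1 array and 1447858_x_at on 6 arrays. The call columns carry no sample labels, so detection is given as a count over arrays. Across the array, between 53.3% and 56.2% of probe sets were called present.

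By median signal on the log2 scale, with the brightest probe set standing for each gene, the order was Il2rg at 11.84, Il7r at 10.03, Il2rb at 9.93, Il2ra at 9.20, Il4ra at 8.88, Il21r at 8.85 and Il15ra at 6.65. This is an order of array signals, which depend on each probe set's affinity as well as on the transcript. Probe sets of 1 gene lay as far apart as 2.32 log2 units for Il2rb and 4.51 for Il4ra, so a gap between genes is not a ratio of transcripts. Il2rg stood above the next gene on 8 of 8 arrays and ranked between 283 and 380 among all 45037 probe sets. Il15ra stood last, and the lowest Il21r signal exceeded its highest by 1.59 log2 units. Between these, the neighbours were not all separable: Il7r exceeded Il2rb on 4 of 8 arrays, Il2ra exceeded Il4ra on 6 of 8 and Il4ra exceeded Il21r on 4 of 8. Il2rb exceeded Il2ra on 8 of 8 arrays. When the mean over a gene's probe sets was used instead, 17 of the 21 pairs of genes kept their order.

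**Figure D1:**
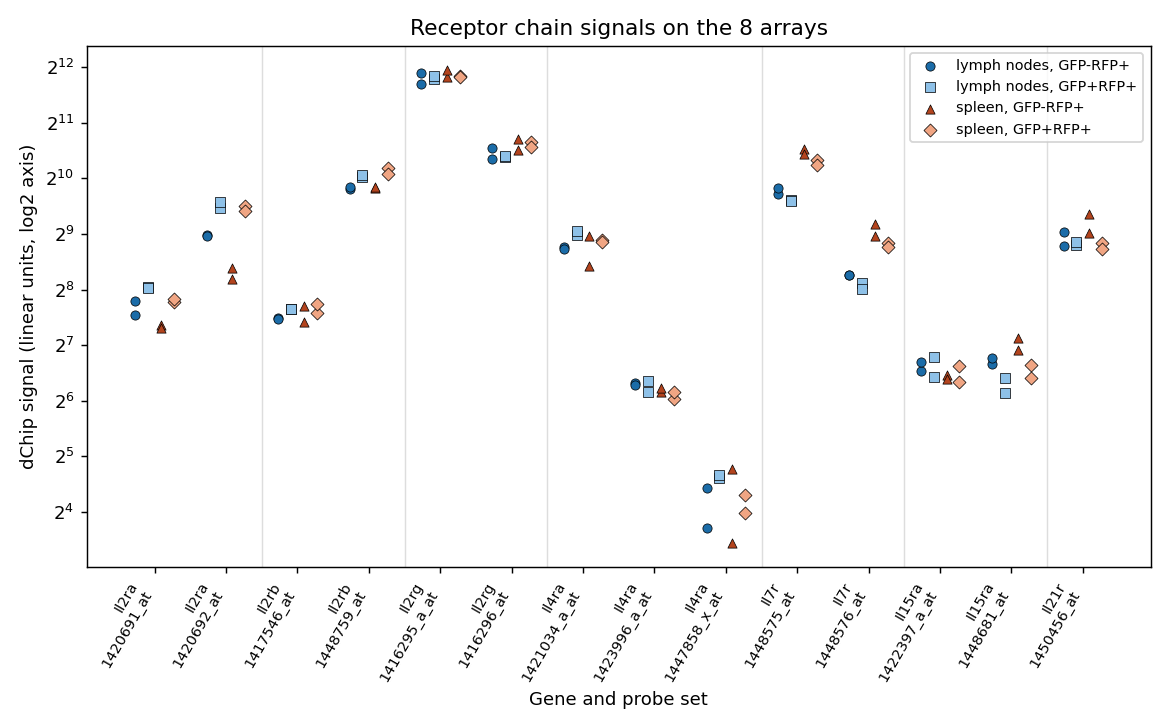
Deposited dChip signal (linear units on a log2 axis) of each of the 14 probe sets, with 1 point per array and marker shape and colour giving the 4 groups. Il2ra was lower in GFP-RFP+ cells in both organs, Il7r was higher in spleen in both populations, and the Il2rg points of 1416295_a_at lay between 3315 and 3973.

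The first comparison the design implies is between the populations, GFP-RFP+ against GFP+RFP+ cells. Il2ra showed the largest difference of the family and was lower in GFP-RFP+ cells. With the probe set 1420692_at, the signal was 507 and 500 on the arrays of GFP-RFP+ cells from lymph nodes and 704 and 764 on those of GFP+RFP+ cells. In spleen it was 335 and 290 in GFP-RFP+ cells and 728 and 684 in GFP+RFP+ cells. The populations did not overlap in either organ, and both GFP-RFP+ arrays from spleen were lower than every other array.

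On the log2 scale the Il2ra difference, GFP-RFP+ minus GFP+RFP+, was -0.86 ± 0.23 (SE, 4 pools, 95% interval -1.69 to -0.03), a signal 1.82-fold lower in GFP-RFP+ cells. The limma fit of population and organ over the 4 pools gave an unadjusted p of 0.0466 and a Benjamini-Hochberg adjusted p of 0.305. When the prior variance of limma was allowed to follow signal intensity, the adjusted p was 0.000198. The SEs and intervals given are those of the fit without this trend. In 10 trend fits that left out technical arrays, the difference ran from -0.92 to -0.80. Each of them still held all 4 pools, so they vary the technical part only. The other Il2ra probe set, 1420691_at, gave -0.41 ± 0.11 (SE) with a limma adjusted p of 0.308, or 0.00357 with the intensity trend. In the fits that left out arrays, its trend call held in 9 of 10 and its difference ran from -0.50 to -0.33. Its signal was 223 and 187 against 263 and 262 in lymph nodes, and 164 and 159 against 219 and 228 in spleen, again without overlap.

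The Il2ra difference of 1420692_at was -0.54 log2 units in lymph nodes and -1.18 in spleen, or 1.46-fold and 2.26-fold lower in GFP-RFP+ cells. With 1 pool in each group, the gap of 0.64 log2 units between the organs could not be tested, and the fit counts it as error. For 1420691_at the organs were closer, at -0.36 and -0.46.

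Il2rb, the chain shared by the receptors for interleukins 2 and 15, was slightly lower in GFP-RFP+ cells. The probe set 1448759_at read 894 and 917 against 1037 and 1069 in lymph nodes, and 907 and 919 against 1164 and 1081 in spleen, with no overlap in either organ. Its log2 difference was -0.26 ± 0.11 (SE), with a limma adjusted p of 0.399, or 0.00947 with the intensity trend. The trend call was lost without technical replicate 1 of every pool and without the first spleen GFP-RFP+ array, at adjusted p of 0.171 and 0.0884. The dimmer Il2rb probe set, 1417546_at, differed by -0.14 log2 units (95% interval -0.54 to 0.26), and its populations overlapped in spleen.

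Il2rg, the common gamma chain, read nearly the same in both populations, within an interval that spans 0. On 1416295_a_at the signal was 3315 and 3787 against 3525 and 3685 in lymph nodes, and 3604 and 3973 against 3689 and 3632 in spleen, so that the populations overlapped in both organs. The log2 difference was 0.012 with a 95% interval of -0.39 to 0.41 and a limma adjusted p of 0.965. The sign turned under quantile normalization between arrays, at -0.18, and under median centring, at -0.011.

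Il15ra, the private chain that binds and presents interleukin 15, gave different readings on its probe sets. On 1448681_at the signal was 101 and 110 against 70.2 and 84.6 in lymph nodes, and 141 and 120 against 100 and 84.8 in spleen, higher in GFP-RFP+ cells in both organs without overlap. The log2 difference was 0.47 ± 0.11 (SE, 95% interval 0.07 to 0.87), with a limma adjusted p of 0.294, or 0.00852 with the intensity trend. With that trend the call held in 6 of 10 fits that left out arrays. The probe set 1422397_a_at, with signals of 80.7 to 110 over all arrays, differed by -0.016 log2 units and overlapped in both organs. The log2 signals of the 2 Il15ra probe sets had a correlation of -0.22 over the 8 arrays, as against 0.92 for Il2ra and 0.99 for Il7r.

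Il7r, the private chain for interleukin 7, was slightly higher in GFP-RFP+ cells. On 1448575_at it read 843 and 909 against 779 and 772 in lymph nodes, and 1469 and 1394 against 1287 and 1208 in spleen. The log2 difference was 0.19 ± 0.11 (SE), with a limma adjusted p of 0.485, or 0.0462 with the intensity trend, and that call held in 3 of 10 fits that left out arrays. The second Il7r probe set, 1448576_at, gave 0.23 ± 0.11, with adjusted p of 0.421 and 0.0366, held in 4 of 10. Neither probe set overlapped between populations within an organ, but quantile normalization brought the difference of 1448575_at down to 0.098. Crlf2, which encodes the chain that joins the Il7r product in the receptor for thymic stromal lymphopoietin, was also higher in GFP-RFP+ cells, by 0.36 log2 units, with a limma adjusted p of 0.326, or 0.000878 with the trend.

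Il4ra, which binds interleukin 4 and also forms a receptor with Il13ra1, could not be separated from technical error. On 1421034_a_at the signal was 436 and 425 against 503 and 532 in lymph nodes, a difference without overlap. In spleen the technical replicates of the GFP-RFP+ pool read 342 and 498, on either side of the 475 and 465 of GFP+RFP+ cells. Those replicates differed by 0.54 log2 units, more than the fitted difference of -0.23 ± 0.11 (SE), whose limma adjusted p was 0.433, or 0.0365 with the intensity trend. Without the first of these arrays the difference was -0.091, and without the second it was -0.36. The trend call held in 3 of 10 fits that left out arrays. The dim probe set 1447858_x_at, at 10.8 to 27.3, differed by 1.34 log2 units between the same pair of arrays. On 1423996_a_at, signals of 65.6 to 81.5 gave a difference of 0.069.

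Il21r, the private chain for interleukin 21, read 442 and 527 against 447 and 464 in lymph nodes and 520 and 656 against 459 and 422 in spleen. The populations overlapped in lymph nodes and not in spleen, where GFP-RFP+ cells were higher. The log2 difference was 0.25 ± 0.15 (SE, 95% interval -0.30 to 0.79), with a limma adjusted p of 0.5, or 0.0601 with the intensity trend. Of 10 trend fits that left out arrays, 2 called it, with adjusted p from 0.0254 to 0.591. Without the second spleen GFP-RFP+ array the difference was 0.16, and over all 10 fits it ranged from 0.082 to 0.41.

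Over the array, the limma fit over 4 pools called 0% of 45037 probe sets at an adjusted p under 0.05, although 7282 had an unadjusted p under 0.05, so its lack of a call says nothing about a single gene. Of the 14 receptor probe sets, 3 had an unadjusted p under 0.05. With the intensity trend, 3 of the 14 were called higher in GFP-RFP+ cells, against 9.72% of all probe sets, and 4 were called lower, against 5.02%. Among the 17476 probe sets called present on all 8 arrays the shares were 20.1% and 9.92%. Arrays of the populations did not overlap in either organ, in the same direction, for 3 receptor probe sets with GFP-RFP+ higher and 3 with it lower, against 15.5% and 10.3% of all probe sets and 28.9% and 17.1% of those present on all 8 arrays. Several of these receptor probe sets share a gene, and the family's share without overlap was close to that of detected probe sets in general.

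**Figure D2:**
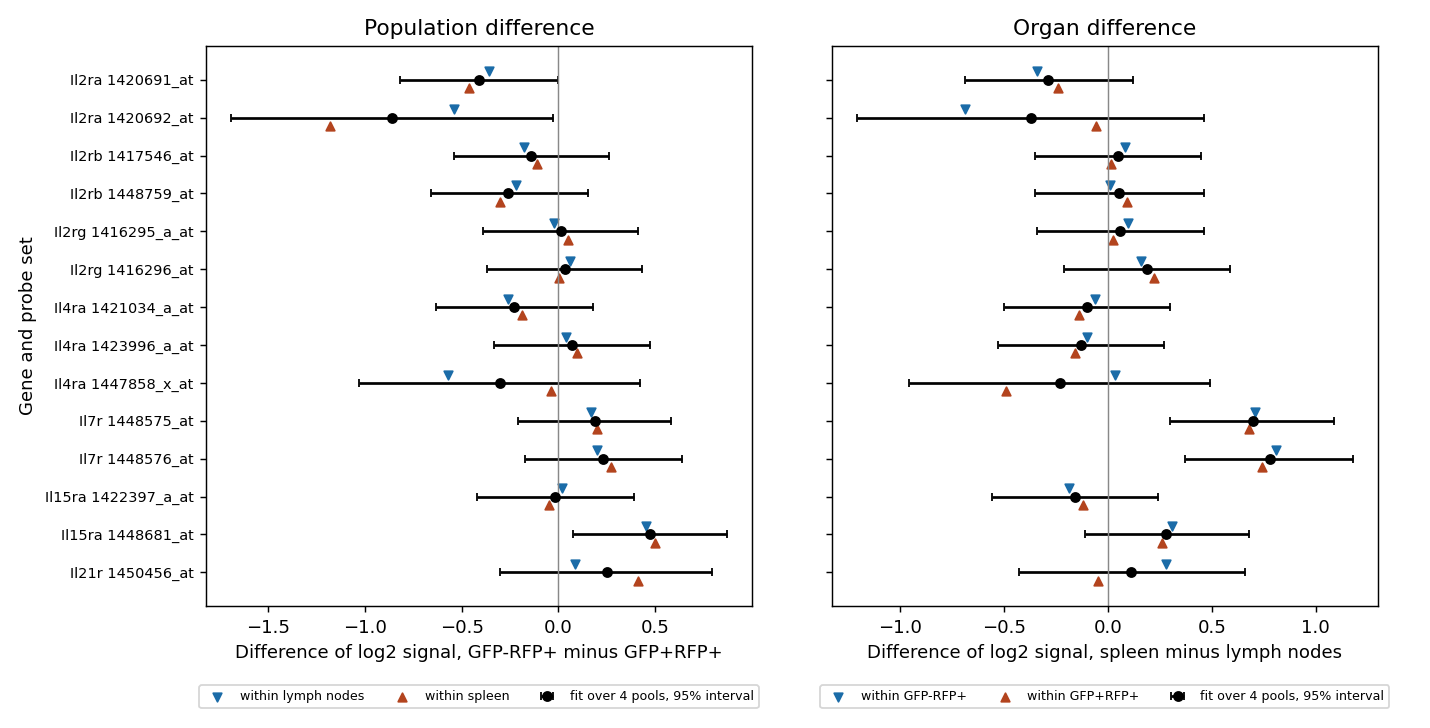
Difference of log2 signal for each probe set between populations (left, GFP-RFP+ minus GFP+RFP+) and between organs (right, spleen minus lymph nodes). Black points and bars give the limma fit over 4 pools with its 95% interval, and triangles give the difference within each organ or each population; the Il7r intervals lie above 0 on the right, and the Il2ra intervals lie below 0 on the left.

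The second comparison is between organs, and there Il7r stood out. With 1448575_at, GFP-RFP+ cells read 1469 and 1394 in spleen against 843 and 909 in lymph nodes, and GFP+RFP+ cells read 1287 and 1208 against 779 and 772. All 4 spleen arrays lay above all 4 lymph node arrays. The log2 difference, spleen minus lymph nodes, was 0.70 ± 0.11 (SE, 4 pools, 95% interval 0.30 to 1.09), a 1.62-fold higher signal. It was 0.71 within GFP-RFP+ cells and 0.68 within GFP+RFP+ cells. The limma fit gave an unadjusted p of 0.0137 and an adjusted p of 0.58, and with the intensity trend the adjusted p was 1.47e-05.

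The probe set 1448576_at gave the same order: 579 and 500 against 309 and 305 in GFP-RFP+ cells, and 458 and 436 against 278 and 257 in GFP+RFP+ cells. Its difference was 0.78 ± 0.11 (SE), or 1.71-fold, with a limma adjusted p of 0.576, or 2.96e-05 with the intensity trend. Both Il7r probe sets were called in 10 of 10 trend fits that left out arrays, with adjusted p of at most 0.018. Quantile normalization left the differences at 0.69 and 0.76.

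Il2ra was lower in spleen on 1420692_at mainly within GFP-RFP+ cells, by -0.69 log2 units against -0.06 within GFP+RFP+ cells, a contrast that could not be tested with 1 pool a group. The fitted organ difference was -0.37 ± 0.23 (SE), with a limma adjusted p of 0.778, or 0.179 with the trend. On 1420691_at it was -0.29 ± 0.11, with 0.68 and 0.141. The other genes showed organ differences between -0.23 for 1447858_x_at of Il4ra and 0.28 for 1448681_at of Il15ra, none with a trend adjusted p under 0.05, and Il2rb differed by 0.051 with a sign that turned under median centring.

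The fit called 0% of probe sets between organs, with 3620 at an unadjusted p under 0.05, among them 2 of the 14 receptor probe sets. With the intensity trend, 2 of the 14 were called higher in spleen, both for Il7r, against 1.21% of all probe sets, and none lower, against 0.409%. Organs did not overlap within either population, in the same direction, for 3 receptor probe sets with spleen higher, against 6.79% of all probe sets, and for 2 with spleen lower, against 5.02%. The 3 were both of Il7r and 1448681_at of Il15ra, and the 2 were 1420691_at of Il2ra and 1423996_a_at of Il4ra. The shares given here for organs are over all probe sets, detected or not, whereas most receptor probe sets were detected.

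**Figure D3:**
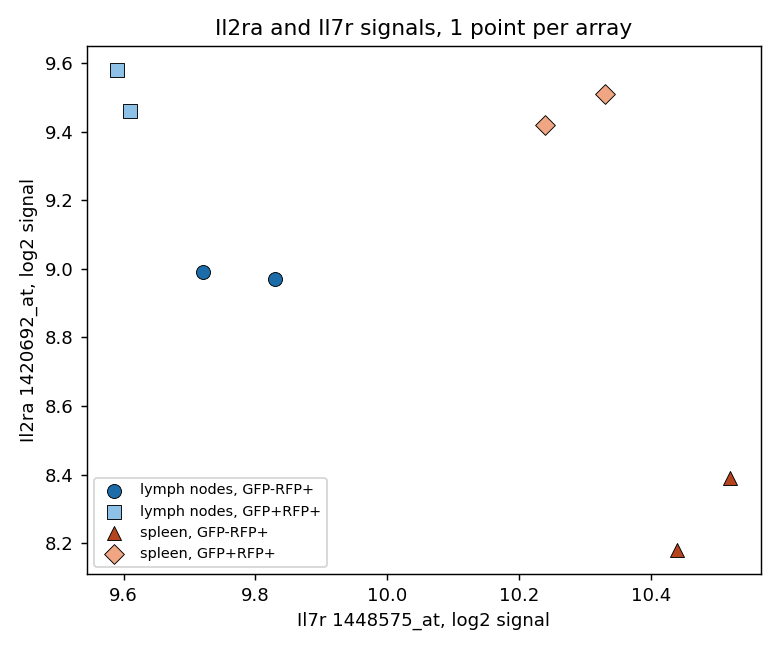
Log2 signal of Il2ra (1420692_at, vertical axis) against that of Il7r (1448575_at, horizontal axis), with 1 point per array and 4 groups. The arrays of each group lie together; spleen GFP-RFP+ arrays lie at the lower right, with log2 Il2ra signals of 8.39 and 8.18, and lymph node GFP+RFP+ arrays lie at the upper left, with 9.46 and 9.58.

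The signals of Il2ra and Il7r thus separated the groups in different directions. Taken as log2 Il2ra minus log2 Il7r on the same array, the value was -0.15 and -0.01 in GFP+RFP+ cells from lymph nodes and -0.73 and -0.86 in GFP-RFP+ cells from lymph nodes. In spleen it was -0.82 on both arrays of GFP+RFP+ cells and -2.13 and -2.26 in GFP-RFP+ cells. These values compare arrays and not the abundance of the transcripts, because they combine different probe sets. Lymph node GFP-RFP+ and spleen GFP+RFP+ arrays were close, through different chains: the former were lower in Il2ra and the latter higher in Il7r.

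The cells' other markers moved with both comparisons. Of 7 markers listed for regulatory T cells, Foxp3 was lower in GFP-RFP+ cells, by -0.57 log2 units. Ctla4 (1.45), Cd4 (0.48), Cd3g (0.29) and Cd3e (0.27) were higher, each called, like Foxp3, only with the intensity trend. Cd4, Cd3g and Cd3e are shared with other CD4+ T cells, and the rest of the 7 were not called. In all, 4 of the 7 were higher and 1 lower by that test, against 20.1% and 9.92% of the probe sets present on all 8 arrays, as 6 of the 7 were. Fewer cells of a type and less RNA per cell cannot be told apart in such bulk samples. With the organ, markers of other blood cells moved: the summed signal of 5 myeloid genes was 110 to 132 over lymph node arrays and 986 to 1793 over spleen arrays, and that of 3 erythroid genes 13.3 to 21.3 and 311 to 882. For 5 B cell genes the sums were 143 to 224 and 388 to 655. Csf1r made up much of the myeloid sum in spleen, with a pool mean of 750 in GFP-RFP+ cells against 19.1 in those from lymph nodes. Alas2 and Slc4a1 made up much of the erythroid sum in spleen, at 370 and 355 against 3.69 and 8.68 in the same pools. Pax5 of B cells and Klrb1c of NK cells were called present on 0 of 8 arrays. With the trend, 4 of 5 myeloid, 3 of 3 erythroid and 3 of 5 B cell genes were called higher in spleen, against 1.21% of all probe sets. The part of these cells in the organ differences of Il7r and Il2ra was not tested. Between populations in lymph nodes, the myeloid sums were 118 to 132 in GFP-RFP+ and 110 to 119 in GFP+RFP+ cells. In spleen those sums were 1218 and 1793 on the GFP-RFP+ arrays and 986 and 1288 on the GFP+RFP+ arrays, which overlapped. The erythroid sums did not overlap there, at 689 and 882 in GFP-RFP+ and 311 and 532 in GFP+RFP+ cells, nor did the B cell sums in lymph nodes, at 143 and 154 in GFP-RFP+ and 218 and 224 in GFP+RFP+ cells. By the trend test between populations, 9.72% of all probe sets were called higher in GFP-RFP+ cells and 5.02% lower. Among the markers of other blood cells, Lyz2 of myeloid cells (0.53), Slc4a1 of erythroid cells (0.83) and Gzma of NK cells (1.29) were higher. Cd79b of B cells (-0.60) was lower. The part of these cells in the population differences, including the larger Il2ra difference in spleen, was not tested.

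The genes downstream of the receptors were described from lists chosen by their known roles, with the brightest probe set for each gene. Calls are those of the intensity trend, an alternative to the fit without it, which called none. With 1 residual degree of freedom, the small p-values of the trend fit rest on spread shared over probe sets. Of 12 genes linked to STAT5 or to feedback on cytokine signalling, 5 were higher and 5 lower in GFP-RFP+ cells, against 20.1% and 9.92% of all probe sets that were, like these, present on 8 of 8 arrays. Socs3, a feedback inhibitor of cytokine signalling, was 1.90-fold higher (log2 difference 0.93, limma trend adjusted p 1.9e-07), with pool means of 2791 against 1452 in lymph nodes and 3189 against 1697 in spleen. The kinase gene Pim1 was 1.83-fold higher, and Cish and Socs1, both cytokine-induced inhibitors, and the survival gene Mcl1 were higher by 0.34, 0.36 and 0.25 log2 units. Foxp3 was 1.49-fold lower, with pool means of 1037 against 1456 and 953 against 1502. Bcl2, Socs2, Myc and Ccnd2 were lower by -0.60, -0.55, -0.50 and -0.40 log2 units. The list's median difference was 0.23. Over all 45037 probe sets, detected or not, it was 0.0095, which is not a matched comparison for a list of detected genes.

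Between organs, 1 gene of that list was higher in spleen, Pim1 at 0.25 log2 units, and Socs2 and Socs1 were lower, at -0.66 and -0.45. These are 1 and 2 of the 12, against 1.21% and 0.409% of all probe sets, detected or not. Here too, that is not a matched comparison for a list of detected genes. Of the 9 JAK and STAT genes reported, all present on 8 of 8 arrays, Jak2 was higher in GFP-RFP+ cells by 0.29 and Stat4 was higher in spleen by 0.34. Jak2 was 1 of 9 called higher between populations, against 20.1% of probe sets present on 8 of 8 arrays. Stat4 was 1 of 9 between organs, against 1.21% of all probe sets, again detected or not. Jak3, which binds the common gamma chain, differed by 0.16, Stat5a by 0.16 and Stat5b by -0.05 between populations, none called. The median population difference of these 9 genes was 0.13.

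**Figure D4:**
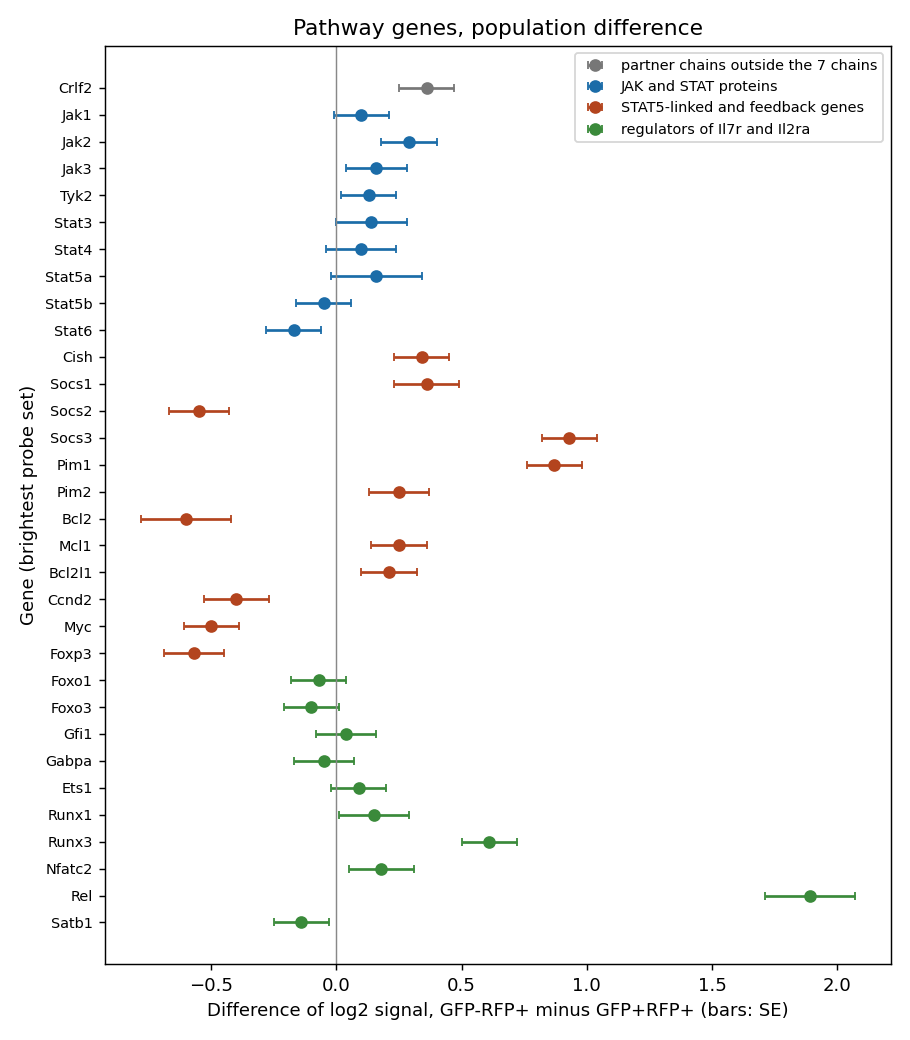
Difference of log2 signal between populations (GFP-RFP+ minus GFP+RFP+, horizontal axis) for pathway genes called present on all 8 arrays, with the standard error of the limma fit as bars and colour giving the list. STAT5-linked genes lie on both sides of 0, from Bcl2 at -0.60 to Socs3 at 0.93, and Rel lies farthest to the right at 1.89.

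Of 10 genes known to act on the Il7r or Il2ra genes, all present on 8 of 8 arrays, Rel and Runx3 were called higher in GFP-RFP+ cells. These 2 of 10 compare with 20.1% of all probe sets present on 8 of 8 arrays. Rel, an NF-kappaB subunit known to act on Il2ra and Foxp3, was 3.70-fold higher, at pool means of 434 against 137 in lymph nodes and 625 against 145 in spleen (limma trend adjusted p 6.78e-08), and Runx3 was 1.53-fold higher. Foxo1, a known activator of Il7r, differed by -0.07 log2 units and was not called. Gfi1, a known repressor of Il7r, was 1.30-fold higher in spleen (trend adjusted p 0.0145), where Il7r was higher too. It was 1 of 10 called higher there, against 1.21% of all probe sets, detected or not, which is not a matched comparison.

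The cytokines of the family were dim, and none of the 6 was called present on all 8 arrays. Il21 and Il4, 2 of the 6, were called higher in GFP-RFP+ cells with the trend, against 9.72% of all probe sets. Pool means of Il21 were 22.3 against 1.19 in lymph nodes and 46.6 against 4.54 in spleen, and those of Il4 were 15.2 against 5.43 and 26.7 against 13.1. Il2, Il7, Il9 and Il15 read at most 30.7 on any array and were not called. Il9r, the remaining private chain of the family, was called present on 1 array, with signals of 2.37 to 14.5.

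Genes with a pattern like that of a receptor were sought for the genes whose brightest probe set ranged over at least 1 log2 unit, which were Il2ra and Il15ra. By the correlation of log2 pool means over 4 pools, those close to Il2ra included Cbx1 and Arhgap20, at 0.9992 and 0.9991. Over the 8 arrays, which share those pools, the correlations were 0.37 and 0.98. Cbx1 was dim, at pool means of 7.94 to 10.7. For Il15ra the closest were Lpin2, Gabpb1 and Pde7a, at 0.9999, 0.9998 and 0.9998 over pools and 0.95, 0.86 and 0.73 over arrays. Among 2296 candidate genes, 37 reached 0.99 with Il2ra and 61 with Il15ra, so over 4 pools such values are common.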

How the data were processed

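Per the file headers, the authors computed the deposited intensity values of the Mouse430_2 arrays by the model-based method of dChip, with 1 array as baseline and no log transformation, and added detection calls. The submitters' processing notes name RMA. Each of the 8 columns of the labelled value table equals a column of the dChip table at all 45101 probe sets, so dChip values were used. The dChip columns carry no sample names, so their calls served only as counts over arrays, and groups came from the labelled table.

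The 64 control probe sets were removed, the deposited intensity values were log2-transformed without an offset, and technical replicates were averaged to 4 pools. Population and organ were fitted together with limma 3.58.1 (R 4.3.3), which left 1 residual degree of freedom, and p-values were adjusted over 45037 probe sets with a threshold of 0.05. No group held a second pool, so the spread behind the p-values of the fit over 4 pools is not one between repeat pools. It is how far the population difference varied between organs, moderated over probe sets by limma. Fits with arrays left out kept all 4 pools. Alternatives were a prior variance that follows intensity, 8 separate arrays, a replicate block, left-out arrays, a detection filter, 2 normalizations, no covariate and, chosen after seeing the data, an offset of 16 and left-out arrays with the trend. The fit was tested on simulated data.

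The members and gene lists were chosen with earlier results of these data known. Genes named are all 7 receptors, list genes called in a comparison or named with their detection, and, for receptors ranging over at least 1 log2 unit, the 3 genes of closest pattern that were called present on at least 6 arrays. All 74 listed symbols matched a RefSeq gene table of GRCm38.p6, and each listed gene stands by its brightest probe set. Jak3, Stat5a, Stat5b and Foxo1 were named after their values were seen. A listed gene and a gene of close pattern are not reported here. The number of arrays limits the precision.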

Additional observations from a re-analysis of the deposited data

How the results depend on the processing

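Without the intensity trend, the limma fit over 4 pools called 0 probe sets in either comparison, and so did its forms with a detection filter, added quantile normalization, median centring, no covariate or left-out arrays. The intensity trend called 6638 probe sets between populations, 7 of them for the receptors, and 731 between organs, 2 of them for the receptors. With 16 added to each signal the counts were 3700 and 2, and 279 and 2. With 8 arrays as separate samples, where the spread is technical only, they were 4006 and 2, and 293 and 2. With the replicate block added to the 8 arrays they were 2382 and 1, and 69 and 0. Technical replicate numbers did not deviate together, with correlations of deviations from -0.0427 to 0.0157, so they do not pair the pools. Over all fits that left out 1 array, or 1 technical replicate of every pool, with and without the trend, counts ranged from 0 to 7035 and, for the receptors, 0 to 8 between populations, and from 0 to 940 and 0 to 3 between organs. The cause of these changes was not tested.

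Il2ra, Il7r, Il21r and 1448681_at of Il15ra kept their directions in both comparisons under every alternative run, although the organ difference of Il21r fell as low as 0.029. The sign turned for small differences. Between populations, quantile normalization gave -0.18 and -0.049 for 1416295_a_at and 1416296_at of Il2rg and -0.03 for 1423996_a_at of Il4ra, and median centring gave -0.011 for 1416295_a_at. Between organs, median centring gave -0.0055 and -0.0021 for 1417546_at and 1448759_at of Il2rb. Over those same fits with arrays left out, population differences ranged from -0.061 to 0.085 and from -0.017 to 0.08 for 1416295_a_at and 1416296_at of Il2rg. They ranged from -0.16 to 0.12 for 1422397_a_at of Il15ra, and from -0.00084 to 0.14 and -0.64 to 0.032 for 1423996_a_at and 1447858_x_at of Il4ra. Organ differences ranged from -0.23 to 0.035 and -0.81 to 0.35 for 1421034_a_at and 1447858_x_at of Il4ra, and from -0.021 to 0.12 for 1417546_at of Il2rb. Signals near background, as for Il4ra 1447858_x_at, limit what these arrays resolve.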
